A study of Mus musculus with 7 samples.

Results

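The 7 genes described here encode stomach hormones, granins and proteins of the acid-regulating axis: gastrin (Gast), somatostatin (Sst), ghrelin (Ghrl), histidine decarboxylase (Hdc), the gastrin receptor (Cckbr) and the granins chromogranin A (Chga) and chromogranin B (Chgb). They were taken by gene symbol from the probe sets annotated to a single gene, and the choice was made with earlier results of these data known. All 7 were measured among 22180 genes, each by 1 probe set. The samples were gastric corpus, the acid-producing main body of the stomach, from Atp4b-DTR mice aged 8 to 12 weeks, in which the parietal cell promoter Atp4b drives a diphtheria toxin receptor so that toxin removes these acid-secreting cells. Mice were given 225 ng of diphtheria toxin each by intraperitoneal injection on 3 days, and corpus was taken 24 h (1 array), 36 h (1 array), 48 h (2 arrays) and 72 h (2 arrays) after the last dose. The reference was 1 array of vehicle-treated (saline) Atp4b-DTR corpus, so control and toxin mice carried the same transgene. Littermates served as controls when possible. The 48 h and 72 h samples are described as independent, with no animals named, so the spread between them may be partly technical.

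Acid secretion is governed by a hormone loop. G cells, which lie mainly in the antrum, release gastrin, which acts through the receptor encoded by Cckbr on enterochromaffin-like (ECL) cells and on parietal cells. ECL cells make histamine with the enzyme encoded by Hdc, and histamine drives parietal cells through the H2 receptor. D cells release somatostatin, which restrains G, ECL and parietal cells, and acid in turn raises somatostatin and lowers gastrin. Ghrelin, the hunger hormone, comes from X/A-like cells of the corpus, and granins are packed with hormones in the dense-core granules of endocrine cells.

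The bases just before the transcription start are shown for the hormones Sst and Ghrl and for the granins. Sst and Ghrl were lowest on the same arrays, where Hdc and Chga were lowest too. The granins differed from each other. Each line gives the 150 bases that end immediately before the start, from RefSeq on GRCm38.p6, 5′ to 3′ on the strand of the gene. For Ghrl the most upstream of 4 listed starts was used. Capitals mark the cyclic AMP response element TGACGTCA, a palindrome bound by CREB-family factors that reads the same on both strands, or its shorter form TGACG, searched on both strands and contained in the full element.
Sst (chr16:23890845-23890994, minus strand): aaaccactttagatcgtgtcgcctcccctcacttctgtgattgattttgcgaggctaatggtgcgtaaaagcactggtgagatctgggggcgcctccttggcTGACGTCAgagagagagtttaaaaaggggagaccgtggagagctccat
Ghrl (chr6:113719912-113720061, minus strand): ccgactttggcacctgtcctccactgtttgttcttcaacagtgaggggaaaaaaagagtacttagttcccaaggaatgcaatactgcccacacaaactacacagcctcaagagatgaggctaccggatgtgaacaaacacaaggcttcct
Chgb (chr2:132781492-132781641, plus strand): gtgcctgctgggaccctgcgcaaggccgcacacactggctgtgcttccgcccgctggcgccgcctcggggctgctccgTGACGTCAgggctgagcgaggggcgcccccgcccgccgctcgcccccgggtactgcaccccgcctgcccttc
Chga (chr12:102554791-102554940, plus strand): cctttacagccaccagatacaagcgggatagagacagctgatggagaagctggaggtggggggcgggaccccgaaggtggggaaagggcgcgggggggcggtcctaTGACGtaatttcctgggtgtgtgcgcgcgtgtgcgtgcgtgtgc
The full element began 48 bases before the start of Sst and 72 before that of Chgb. Chga held the shorter form alone, beginning 44 bases before its start. Within 250 bases of the start neither form was found in Ghrl, Gast, Hdc or Cckbr. Of 27025 mouse genes with a listed start, 1.6% held the full element in that window and 17.8% the shorter form. These letters describe the sequence and were not tested as binding sites.

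Every value below is a log2 signal, so that 1 unit is a 2-fold difference, and levels are compared within a gene and not between genes. The arrays carried 2 sex-linked patterns. Xist was at 9.17 on the 24 h array and 8.13 with saline, and at 2.70 to 3.27 elsewhere. The Y-linked Eif2s3y was at 3.40 on the 24 h array and 3.81 with saline, and at 7.79 to 8.39 elsewhere. Differences of 36, 48 and 72 h from the control are therefore also differences between these patterns, and the 2 cannot be told apart there. Of 11 parietal cell markers 10 lay below the control in the mean over toxin times, with a median of -1.11, from Esrrg at 0.03 ± 0.21 to Slc26a7 at -3.88 ± 0.23. Atp4b, the beta subunit of the proton pump, was at 12.94 with saline, 10.68 on the 24 h array, 12.33 on the 36 h array, 11.66 and 12.39 on the 48 h pair, and 12.65 and 12.92 on the 72 h pair. The samples are whole tissue, so fewer cells of a type and less RNA per cell cannot be told apart. Squamous epithelium markers, which belong to the forestomach, had a positive difference in 4 of 7 and a negative one in 3 in the mean over toxin times, and differed between replicates. At an unadjusted p under 0.05, where 9.59% of all genes were higher and 12.2% lower, 0 of the 7 were either. Krt6a was highest, at 0.56 ± 0.45. Krt4 was at 4.21 and 7.74 on the 48 h arrays and at 8.51 and 4.12 on the 72 h arrays, against 7.79 on the control.

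Gast stood at 5.83 with saline, 6.0 on the 24 h array, 7.32 on the 36 h array, 7.32 and 6.68 on the 48 h pair, and 8.32 and 7.61 on the 72 h pair. All 6 toxin arrays were above the control, the 24 h array only slightly, and both 72 h arrays lay above every earlier array. The 72 h difference from the control was 2.48 and 1.77 on the 2 arrays, which is 5.58-fold and 3.42-fold. Of all genes, 0.0767% had a difference at least as high in the 72 h mean. The 2 arrays differed from each other by 0.65 at 48 h and by 0.71 at 72 h, a gap matched or passed by 1.9% and 0.906% of genes.

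Because gastrin cells lie mainly in the antrum, markers of neighbouring regions were read on the same arrays. Nkx6-3, a homeobox gene that in mice is expressed in the antrum and needed for gastrin cells, was at 5.58 with saline, 5.40 on the 24 h array, 5.98 on the 36 h array, 6.08 and 5.85 on the 48 h pair, and 6.53 and 6.13 on the 72 h pair. It was below the control at 24 h and above it on the 5 later arrays, with its highest value on the array where Gast was highest. Nkx6-3 is named as 1 of the 3 genes closest to Gast over these arrays, so this likeness was fixed by how it was picked. Pdx1, a homeobox gene of antrum, duodenum and pancreas, was at 5.14 with saline, 4.78 on the 24 h array, 5.49 on the 36 h array, 5.13 and 5.14 on the 48 h pair, and 5.36 and 5.21 on the 72 h pair. The intestinal regulators Cdx1 and Cdx2 were at 4.42 to 4.83 and 4.0 to 4.13 on toxin arrays, against 4.31 and 4.06 on the control. Genes of intestinal enterocytes went in both directions. Rbp2, a retinol-binding protein, was highest, at 7.79 to 8.23 on toxin arrays and 6.97 on the control, a difference of 1.10 ± 0.14. Fabp2, a fatty acid-binding protein, was at 6.77 with saline, 7.04 on the 24 h array, 7.60 on the 36 h array, 7.56 and 6.86 on the 48 h pair, and 8.13 and 7.86 on the 72 h pair. All 6 toxin arrays were above the control for both genes, and Fabp2, which was named after its values were seen, was highest at 72 h, as Gast was. Fabp1, another fatty acid-binding protein, was below the control on all 6, at 3.51 to 4.86 against 5.44, or -1.14 ± 0.59. Apoa4, an apolipoprotein, was lowest, at 6.60 to 7.79 on toxin arrays and 9.30 on the control, or -2.26 ± 0.27. Of the 9 genes, 5 had a positive and 4 a negative difference in the mean over toxin times, with a median of 0.01. At an unadjusted p under 0.05, where 9.59% of all genes were higher and 12.2% lower, 1 (11.1%) was higher and 2 (22.2%) were lower. The summed signal, as log2, was 9.30 to 9.64 on toxin arrays and 9.98 on the control, a sum in which Apoa4 was the largest term on the control. The part of antral or intestinal tissue in the Gast values was not tested.

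Sst, whose product holds gastrin and histamine release in check, was at 11.06 with saline, 10.70 on the 24 h array, 9.46 on the 36 h array, 9.81 and 10.41 on the 48 h pair, and 10.42 and 10.41 on the 72 h pair. Each toxin array was below the control, and the lowest were that of 36 h and the first of 48 h. At 36 h Sst was 3.02-fold below the control, and 0.473% of genes were as low. The 72 h arrays lay within 0.01 of each other and 0.64 and 0.65 below the control.

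Ghrl was at 11.88 with saline, 11.80 on the 24 h array, 10.66 on the 36 h array, 10.98 and 11.47 on the 48 h pair, and 11.84 and 11.32 on the 72 h pair. All 6 toxin arrays were below the control, but those of 24 h and the first of 72 h lay within 0.09 of it. Its lowest arrays, at 36 h and the first of 48 h, were also the lowest for Sst, Hdc and Chga. Pearson's r between Ghrl and Sst was 0.93 over the 7 arrays, which share their scaling. Sst had an r of 0.61 with Chga and 0.70 with Hdc, and Ghrl one of 0.76 and 0.67. Hdc with Chga was at 0.79, and Gast with Sst at -0.53.

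**Figure D1:**
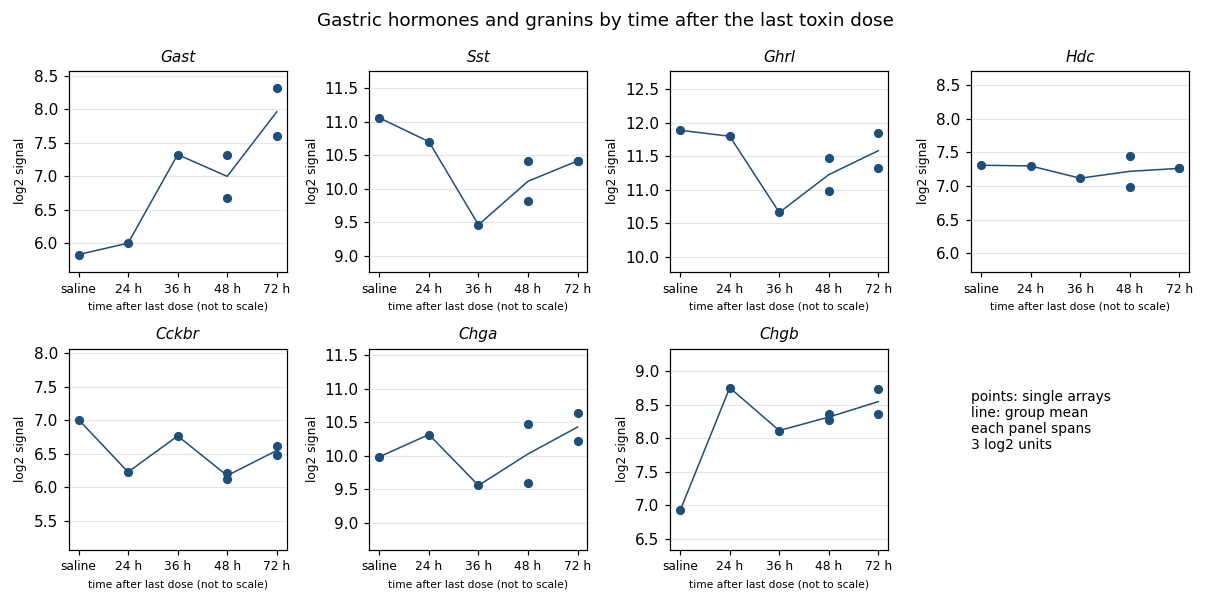
Log2 signal (y axis, each panel spanning 3 units) of the 7 genes on the saline control array and at 24, 36, 48 and 72 h after the last toxin dose (x axis, not to scale); points are single arrays and the line joins group means. Gast is highest at 72 h, at 8.32 and 7.61, and Sst, Ghrl and Chga are lowest at 36 h. Hdc stays between 6.99 and 7.45, and Chgb is above 8.1 on each toxin array, against 6.93 on the control.

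Gast and Sst were also set against each other within each array. A constant shift of an array cancels in this comparison, while quantile scaling need not. The log2 difference of Gast minus Sst exceeded that of the control by 0.53 on the 24 h array, 3.09 on the 36 h array, 2.73 and 1.49 on the 48 h pair, and 3.12 and 2.42 on the 72 h pair. The ratio of the 2 signals was thus 1.44-fold that of the control at 24 h and between 2.81-fold and 8.68-fold on the later arrays. The lone control array enters each of these values.

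Hdc, the histamine-forming enzyme of ECL cells, was at 7.31 with saline, 7.30 on the 24 h array, 7.12 on the 36 h array, 6.99 and 7.45 on the 48 h pair, and 7.26 on both 72 h arrays. The control lay inside the span of the toxin arrays. The whole range over 7 arrays was 0.46, the smallest of the 7 genes. Mast cells also express Hdc, so their proteases were read beside it. Cpa3 was at 5.32 with saline, 6.29 on the 24 h array, 5.03 on the 36 h array, 6.60 and 6.67 on the 48 h pair, and 7.10 and 5.42 on the 72 h pair. Mcpt2 was at 3.60 with saline, 4.29 on the 24 h array, 3.63 on the 36 h array, 4.88 and 5.45 on the 48 h pair, and 5.93 and 4.09 on the 72 h pair. Of 12 mast cell and basophil markers 8 had a positive and 4 a negative difference in the mean over toxin times. At an unadjusted p under 0.05, where 9.59% of all genes were higher and 12.2% lower, 0 of the 12 were higher and 1 (8.33%) lower (Kit). The log2 of their summed unlogged signal was 8.25 to 9.06 on toxin arrays and 9.05 on the control. Kit, which other cells also express, was at 6.49 to 7.43 on toxin arrays and 8.39 on the control. For neutrophil markers, of another myeloid source of Hdc, the log2 of the summed signal was 7.08 to 7.27 on toxin arrays and 6.99 on the control. The difference was positive in 7 of 8, with a median of 0.17 and 0 past an unadjusted p of 0.05. The part of these cells in Hdc was not tested.

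Cckbr, the receptor that passes the gastrin signal to ECL and parietal cells, was at 7.01 with saline, 6.23 on the 24 h array, 6.77 on the 36 h array, 6.22 and 6.13 on the 48 h pair, and 6.49 and 6.61 on the 72 h pair. Each toxin array was below the control, and the 2 arrays of 48 h were the lowest, with a gap of 0.09 between them. The 36 h array lay nearest to the control, at -0.24. On the same arrays Atp4b differed from saline by -2.25 on the 24 h array, -0.61 on the 36 h array, -1.27 and -0.55 on the 48 h pair, and -0.28 and -0.02 on the 72 h pair, and its part in the Cckbr values was not tested.

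Chga, the granin used as a general marker of endocrine cells, was at 9.98 with saline, 10.32 on the 24 h array, 9.56 on the 36 h array, 9.59 and 10.47 on the 48 h pair, and 10.64 and 10.22 on the 72 h pair. Values lay on both sides of the control, and the 48 h arrays were 0.88 apart, a gap that 0.744% of genes reached.

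Chgb, packed in the same granules, was at 6.93 with saline, 8.75 on the 24 h array, 8.12 on the 36 h array, 8.28 and 8.36 on the 48 h pair, and 8.74 and 8.36 on the 72 h pair. The 6 toxin arrays covered 0.64 and all lay at least 1.19 above the control, or 2.28-fold to 3.55-fold. Within arrays, the log2 difference of Chgb minus Chga exceeded that of the control by 0.95 to 1.75. The 24 h difference, of 1.83, is of 1 array against 1 with the same sex-linked pattern. On the later arrays toxin and pattern cannot be told apart.

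**Figure D2:**
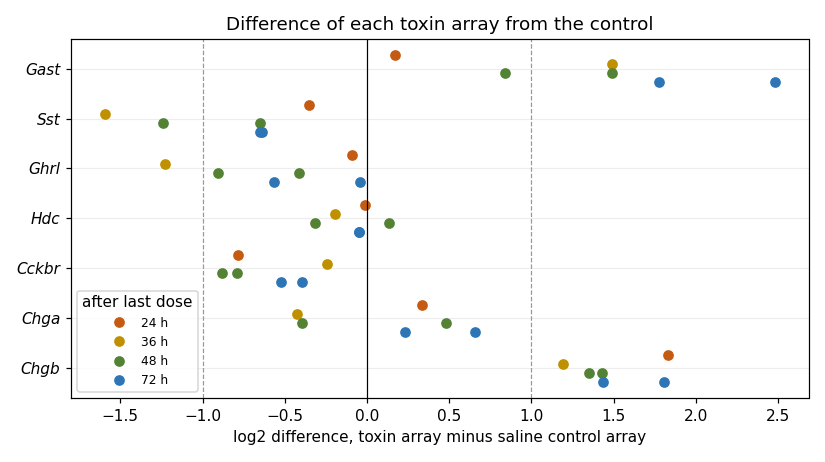
Log2 difference of each toxin array from the saline control array (x axis) for the 7 genes (rows), coloured by time after the last dose; dashed lines mark 2-fold. Chgb lies beyond 2-fold on all 6 arrays, Gast on 4 of 6, Sst on 2 of 6 and Ghrl on 1 of 6, while Hdc and Chga straddle 0.

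At 24 h and 36 h, with 1 array against 1, there was no test. At 24 h 1 of the 7 genes, Chgb, was at least 2-fold higher and 0 were 2-fold lower. Over all genes 1.2% were this much higher and 1.67% lower. At 36 h Gast and Chgb were at least 2-fold higher, where 0.933% of all genes were, and Sst and Ghrl were at least 2-fold lower, where 1.61% were. Side by side, Gast was at 0.17 from the control at 24 h and 1.49 at 36 h, and Sst at -0.36 and -1.60. The 36 h array carried the other sex-linked pattern from the control.

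The comparison of 48 h with the control asks what differed 2 days after the last dose. Chgb was higher by 1.39 ± 0.19 (SE of the limma fit, 2 arrays against 1) and Gast by 1.17 ± 0.47. Cckbr was lower, at -0.83 ± 0.09, as were Sst at -0.95 ± 0.29 and Ghrl at -0.66 ± 0.35. Hdc at -0.09 ± 0.23 and Chga at 0.04 ± 0.48 were within their error of 0. In limma with Benjamini-Hochberg adjustment none of the 7 passed 0.05, and 0% of all genes did. The adjusted p was 0.126 for Chgb, 0.121 for Cckbr, 0.245 for Sst and 0.329 for Gast. At an unadjusted p under 0.05, Chgb was higher and Sst and Cckbr were lower, where 8.16% of all genes were higher and 11.6% lower.

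The comparison of 72 h with the control asks what remained after 3 days. Gast was higher by 2.13 ± 0.47 (SE, 2 arrays against 1), which is 4.37-fold, and Chgb by 1.62 ± 0.19. Cckbr was at -0.46 ± 0.09, Sst at -0.64 ± 0.29, Ghrl at -0.30 ± 0.35, Hdc at -0.05 ± 0.23 and Chga at 0.44 ± 0.48. Again 0% of genes passed in limma, with an adjusted p of 0.194 for Gast, 0.148 for Chgb and 0.174 for Cckbr. At an unadjusted p under 0.05, Gast and Chgb were higher and Cckbr was lower, where 7.93% of all genes were higher and 10% lower.

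Between 72 h and 48 h, the comparison with replicates on both sides, all 7 genes had a higher mean at 72 h. Gast averaged 7.96 at 72 h and 7.0 at 48 h, a difference of 0.96 ± 0.38 (SE, n = 2 each). Cckbr averaged 6.55 at 72 h and 6.18 at 48 h, a difference of 0.37 ± 0.07. For Gast, Cckbr and Chgb both 72 h arrays lay above both 48 h arrays, as they did in 16.7% of all genes, and both lay below in 13% of all genes and 0 of the 7. Sst, with a difference of 0.30 ± 0.24, Ghrl with 0.36 ± 0.29, Chga with 0.40 ± 0.39, Chgb with 0.23 ± 0.16 and Hdc with 0.04 ± 0.19 lay closer to their errors. With single arrays left out, Gast ran from 0.61 without the first 72 h array to 1.32 without the second. Ghrl ran from 0.0978 to 0.62 and Chgb from 0.0442 to 0.42, for the same arrays, and Sst from 0.0063 without the first 48 h array to 0.60 without the second. In limma 0% of genes passed, and the adjusted p was 0.743 for Gast and 0.705 for Cckbr. Cckbr had an unadjusted p of 0.0129, where 4.27% of all genes were higher and 2.8% lower at 0.05.

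The mean over the 4 toxin times, set against the control, was 1.51 ± 0.17 for Chgb, 1.24 ± 0.42 for Gast, -0.88 ± 0.26 for Sst, -0.58 ± 0.08 for Cckbr and -0.57 ± 0.31 for Ghrl. None passed limma, where 0% of genes did, with an adjusted p of 0.0854 for Chgb and 0.0952 for Cckbr. At an unadjusted p under 0.05 Chgb was higher and Sst and Cckbr lower, where 9.59% of all genes were higher and 12.2% lower. Chgb passed in 4 alternatives, with an adjusted p of 0.0286 among genes with at least 6 distinct values, 0.0400 and 0.0355 with array medians over genes or over all probe sets subtracted, and 0.0477 after quantile normalisation again. Gast and Chgb were above the control on every toxin array, as were 20.2% of all genes. Sst, Ghrl and Cckbr were below it on every toxin array, as were 22.6% of all genes. These comparisons share the 1 control array, so they do not repeat each other.

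Over the 6 toxin arrays alone, which leaves the control out, Gast had a slope of 0.83 ± 0.23 log2 units per 24 h (SE), with an unadjusted p of 0.0114 and an adjusted p of 0.462 in limma. Of all genes, 0.0676% had a slope at least as high. At an unadjusted p under 0.05, 4.22% of genes had a positive and 4.47% a negative slope, and 0% passed the adjusted test. The slope of Gast was 0.60 to 1.01 when each array was left out in turn, and the lowest of these was without the 24 h array, when the 5 arrays that remain share a sex-linked pattern. Slopes of the other genes were 0.22 ± 0.22 for Chga, 0.11 ± 0.24 for Ghrl, 0.09 ± 0.24 for Sst, 0.09 ± 0.13 for Cckbr, 0.02 ± 0.14 for Chgb and 0.02 ± 0.09 for Hdc. Without the 36 h array those of Sst and Ghrl became -0.08 and -0.04.

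**Figure D3:**
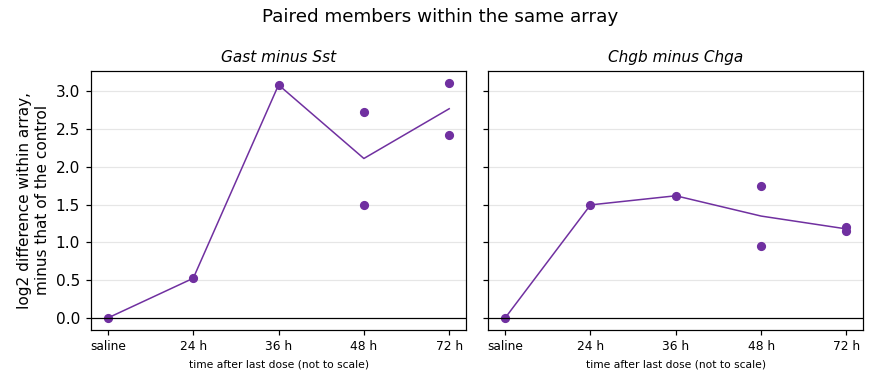
Log2 difference between 2 genes of the same array, minus that of the saline control array (y axis), by time after the last dose (x axis, not to scale); points are arrays and lines join group means. Gast minus Sst lies at 0.53 at 24 h and between 1.49 and 3.12 later, and Chgb minus Chga between 0.95 and 1.75 on all toxin arrays.

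The machinery around these hormones was read from lists of related genes, and none of the genes in them passed limma. Counts below are of the mean over toxin times against the control at an unadjusted p under 0.05, where 9.59% of all genes were higher and 12.2% lower. Among 15 receptors of the axis 0 were higher and 6 (40.0%) lower, with a median of -0.11, against a median of 0.00 over all genes. The 6 include Hrh4, a dim gene at 2.93 to 2.97 on toxin arrays and 3.26 on the control. They also include Grpr, at 4.43 on the control, 3.92 on the 36 h array and 4.35 to 4.36 on the other toxin arrays. For Hrh4 and Grpr the replicates were equal or nearly so, which makes their errors small. Hrh2, the histamine receptor of parietal cells, was at 7.02 with saline, 5.01 on the 24 h array, 5.85 on the 36 h array, 5.62 and 5.69 on the 48 h pair, and 5.69 and 6.65 on the 72 h pair. Sstr2, through which somatostatin restrains ECL cells, was at 5.95 to 6.64 on toxin arrays and 7.08 on the control, a difference of -0.93 ± 0.18. Adcyap1r1, the PACAP receptor that stimulates ECL cells, was lowest in the list, at 5.15 to 5.64 on toxin arrays and 7.92 on the control. Its difference was -2.44 ± 0.10, with an adjusted p of 0.0838 in limma. Cckar, the cholecystokinin receptor, was at -1.59 ± 0.36. Chrm3, the muscarinic receptor of parietal cells, was at -0.47 ± 0.16, Ghsr, the ghrelin receptor, at -0.02 ± 0.04 and Sstr3 highest at 0.11 ± 0.14. The lower receptors were thus Hrh2, Hrh4, Sstr2, Adcyap1r1, Cckar and Grpr. Other histamine receptors lay within their errors of 0, with Hrh1 at 0.01 ± 0.09 and Hrh3 at 0.01 ± 0.07. So did other somatostatin receptors, with Sstr1 at 0.05 ± 0.20, Sstr4 at -0.11 ± 0.12 and Sstr5 at -0.03 ± 0.05. Parietal cell markers were lower on these arrays too, and the part of parietal cells in the lower receptors was not tested.

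For histamine and amine handling, 1 of 8 measured genes (12.5%) was higher and 2 (25%) were lower, against 9.59% and 12.2% of all genes, with a median of -0.28. The higher gene was Ddc, at 0.32 ± 0.05. The lower ones were Hnmt and Maoa, with Maoa at -0.14 ± 0.04 though above the control on the 36 h array. Hnmt, which inactivates histamine by methylation, was at 5.25 to 5.5 on toxin arrays and 6.60 on the control, a difference of -1.17 ± 0.13. Slc18a2, the transporter that loads histamine into ECL granules, was at 8.36 with saline, 7.94 on the 24 h array, 7.08 on the 36 h array, 7.27 and 7.98 on the 48 h pair, and 7.84 and 7.58 on the 72 h pair. All 6 arrays were below the control, lowest at 36 h and on the first of 48 h, as for Sst, Ghrl, Hdc and Chga. Slc18a1 was at -0.41 ± 0.14 and Aoc1, the diamine oxidase, at -0.06 ± 0.07. Tph1, the first enzyme of serotonin synthesis, was highest in the list, at 0.37 ± 0.39, with 6.04 and 5.19 at 72 h, against 4.74 on the control.

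Among 8 measured genes of prohormone processing 0 were higher and 4 (50%) lower, against 9.59% and 12.2% of all genes, with a median of -0.14. Furin, a proprotein convertase of nearly all cells, was at 9.68 to 10.27 on toxin arrays and 11.80 on the control, or -1.85 ± 0.26. Cpe, the carboxypeptidase that trims hormone precursors, was at -0.55 ± 0.12. The other lower genes, Pam at -0.17 ± 0.05 and Qpct at -0.18 ± 0.04, had small differences with small errors. Pcsk1, the endocrine convertase, was at -0.00 ± 0.05 and Mboat4, which attaches the fatty acid that ghrelin needs to act, at -0.03 ± 0.04. Pcsk2 was not analysed here.

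Among 11 other granins and granule proteins 1 (9.09%) was higher and 2 (18.2%) were lower, near the 9.59% and 12.2% of all genes, with a median of -0.08. Vgf was at 0.41 ± 0.13, Scg2 at -0.05 ± 0.12, Scg5 at -0.13 ± 0.10 and Scg3, which helps to sort chromogranin A into granules, at -0.57 ± 0.05. The 1.51 of Chgb was above all of them. Enteric neurons also hold granins. Of 9 measured neuron markers 0 were higher and 2 lower at that threshold, with Elavl4 at -0.02 ± 0.09, Prph at -0.46 ± 0.16, Tubb3 highest at 0.02 ± 0.25 and Chrna3 lowest at -0.85 ± 0.09. The log2 of their summed unlogged signal was 8.39 to 8.60 on toxin arrays and 8.88 on the control. The part of neurons in Chgb was not tested.

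Of 19 other gut hormones 1 (5.26%) was higher and 3 (15.8%) were lower, near the 9.59% and 12.2% of all genes, with a median of -0.06. Nucb2, the precursor of nesfatin-1, which X/A-like cells make beside ghrelin, was at 9.96 with saline, 8.77 on the 24 h array, 7.73 on the 36 h array, 8.50 on both 48 h arrays, and 8.50 and 8.32 on the 72 h pair. Its difference was -1.60 ± 0.09, and it was lowest at 36 h, as Ghrl was. Gip, an incretin, was highest in the list, at 0.34 ± 0.06, and above the control on all 6 toxin arrays. Sct, the precursor of secretin, was below it on all 6, at -0.32 ± 0.06. Of the other intestinal hormones, Cck was at -0.01 ± 0.04, Nts at 0.04 ± 0.08, Pyy at 0.00 ± 0.13 and Gcg at -0.12 ± 0.11. Gcg, the precursor of glucagon and GLP-1, averaged 5.48 at 72 h and 4.77 at 48 h. Of 5 measured pancreas markers 0 were higher and 1 lower at that threshold, with Ins2 at 2.40 to 2.93 on toxin arrays and 2.48 on the control, Prss2 highest at 0.26 ± 0.09, and Cel lowest at -2.26 ± 0.21.

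Of 16 measured transcription factors of endocrine cells 2 (12.5%) were higher and 2 (12.5%) lower, near the 9.59% and 12.2% of all genes, with a median of 0.01. Neurog3, which starts endocrine differentiation, was at 4.28 with saline, 4.80 on the 24 h array, 4.81 on the 36 h array, 4.43 and 4.57 on the 48 h pair, and 5.43 and 4.86 on the 72 h pair, higher on each toxin array. Its mean difference was 0.53 ± 0.26, with an unadjusted p of 0.132. Pax6 was at 0.38 ± 0.04, Insm1 at 0.14 ± 0.04, Neurod1 at -0.09 ± 0.31, Pdx1 at 0.04 ± 0.08 and Etv1 lowest at -0.53 ± 0.08. Insm1 and Pax6 were the 2 higher genes, and Pax4, at -0.36 ± 0.05, was lower beside Etv1. Insm1, Pax6 and Pax4 had exactly equal values on several toxin arrays, which goes with their small errors.

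**Figure D4:**
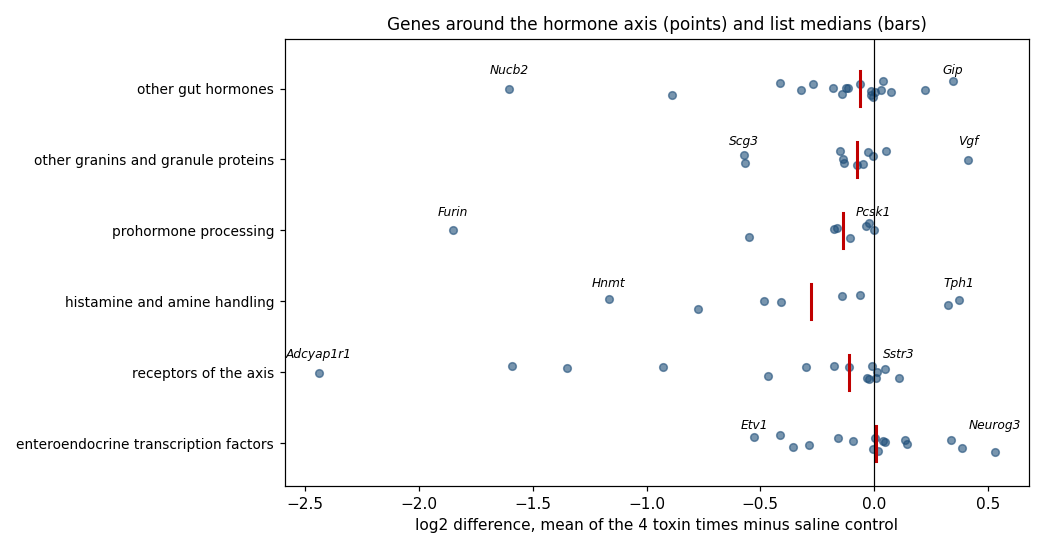
Log2 difference of the mean over the 4 toxin times from the saline control (x axis) for genes of 6 lists (rows); points are genes, with the highest and lowest named, and red bars are list medians. The medians lie between -0.28 and 0.01, and the 3 lowest genes are Adcyap1r1 (-2.44), Furin (-1.85) and Nucb2 (-1.60).

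The genes most like each member were found by Pearson's r over the 7 arrays among 1919 genes with an SD of at least 0.3. These values are a description, since the arrays share depth of signal, scaling and tissue. Predicted, small RNA, immunoglobulin, T cell receptor, olfactory and vomeronasal genes were left unnamed. Unnamed genes were closer in some cases: 1 above Rfx6 for Ghrl, 2 above Creld2 for Chga and 1 above Ahsg for Hdc. Gast was closest to Krt7, a keratin (r = 0.98), Nkx6-3 (0.97) and Sdcbp2 (0.96). Sst was closest to Rfx6, a transcription factor of endocrine cells (0.98), Rtn4rl1 (0.97) and Derl3 (0.97). Of named genes, Ghrl was also closest to Rfx6 (0.94), then to Resp18, a protein of endocrine granules (0.93), and Try4, a trypsin gene (0.93). Rfx6 was at 5.40 with saline, 5.27 on the 24 h array, 4.50 on the 36 h array, 4.77 and 5.22 on the 48 h pair, and 5.17 and 5.15 on the 72 h pair, and so shared the low 36 h array. Cckbr was closest to Aspn (0.99), Muc13 (0.98) and Mcee (0.96), and Chgb to Smpdl3b (0.95), Pappa2 (0.95) and Dnph1 (0.95). Chga was closest to Creld2 (0.88), Amy2b (0.85) and Resp18 (0.84), and Hdc to Cyp2a22 (0.93), Ahsg (0.83) and Amy2b (0.82).

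**Figure D5:**
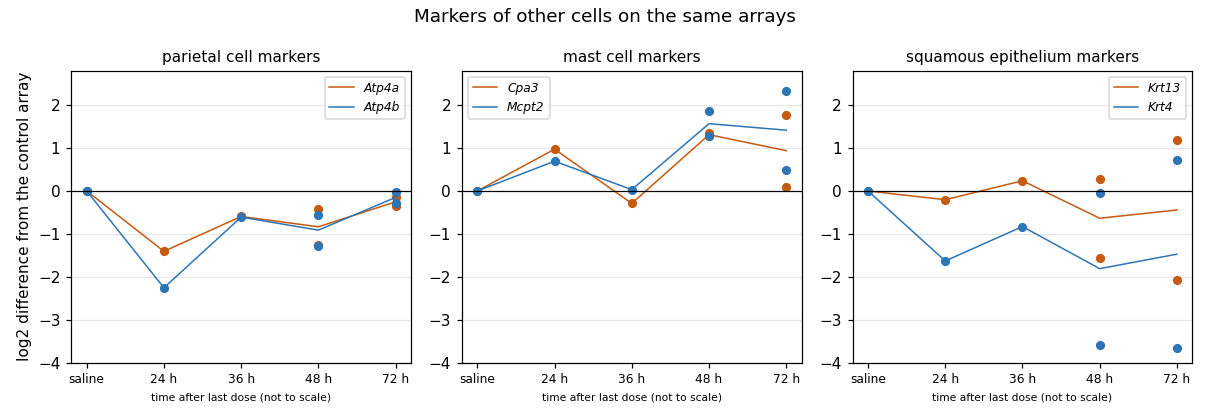
Log2 difference from the saline control array (y axis) of markers of parietal cells (Atp4a, Atp4b), mast cells (Cpa3, Mcpt2) and squamous epithelium (Krt13, Krt4) by time after the last dose (x axis, not to scale); points are arrays and lines join group means. Atp4b is lowest at 24 h (-2.25), Mcpt2 is highest on the first 72 h array (2.34), and Krt4 and Krt13 differ between replicates of 48 h and of 72 h.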

How the data were processed

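Biotin-labelled cDNA from total RNA of each corpus sample was hybridised to its own single-colour array. Per the submitters' processing notes, the authors made the deposited log2 signal (41345 probe sets, 7 columns, all used) with RMA and Partek. For both tools the version, and for the array the genome build, is not given in the sources used here. Array medians over all probe sets ran from 4.56 to 4.71. Arrays give no count depth, so precision is set by how many there are.

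Probe sets annotated to 1 gene were kept (23521), with the highest-mean probe set per gene, which left 22180 genes. Promoter sequences came from RefSeq (GRCm38.p6) by symbol, with all 7 genes matched. The test was limma 3.58.1 under R 4.3.3, with lmFit then eBayes, two-sided and adjusted by Benjamini-Hochberg over all genes at 0.05, with a mean per group over 7 arrays, which left 2 residual degrees of freedom, all from the 48 h and 72 h pairs; the lone control is assumed to vary like them. The slope was fitted over the 6 toxin arrays in units of 24 h. The code was tested on simulated data. After RMA, 11.2% of genes had tied values in the 48 h pair and 10.7% in the 72 h pair. Replicate numbers were not taken as pairs: the differences between replicates of 48 h and of 72 h correlated at -0.13 over genes, which are no independent replicates.

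The 7 genes, the lists and the tests were chosen with earlier results of these data known. Named genes are the 7 members and genes drawn from the anchor genes of each list, the highest and lowest gene of a list by its mean over toxin times, and the 3 genes most like each member, predicted genes left out. Cckar, Ddc, Fabp1, Fabp2, Grpr, Hrh1, Hrh3, Hrh4, Maoa, Pam, Pax4, Qpct, Sct, Sstr1, Sstr4 and Sstr5 were added after their values were seen. Alternatives were another scaling, the mean of probe sets, filters on dim genes and on tied values, an intensity trend, the groups compared alone, a replicate block (also with crossed numbers) and leaving out each toxin array.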

Additional observations from a re-analysis of the deposited data

Results flagged for a closer look

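Among the 7 genes, Chga had all arrays of some toxin times above the control and all arrays of another below it. It was at 0.33 above the control at 24 h and at -0.43 from it at 36 h, and on the 72 h arrays it was at 0.66 and 0.23. The difference between these times was not tested. The 36 h value is that of 1 array.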

How the results depend on the processing

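None of the 7 genes passed limma's adjusted threshold in the 48 h, 72 h, 72 h against 48 h or slope comparisons under any alternative that was run, and Chgb alone passed (1 gene) in the mean over toxin times, in 4 alternatives given in the report. Counts over all genes were 0 with the settings of the report. At 48 h against control they were 12 after quantile normalisation again, 77 with array medians over genes subtracted, 167 with medians over all probe sets subtracted (added after seeing the data) and 143 when genes with fewer than 6 distinct values were dropped. The same settings gave 6, 13, 30 and 52 at 72 h against control, and 279, 339, 613 and 510 for the mean over toxin times. The cause was not tested. With the replicate block, 0 genes and 0 of the 7 passed between 72 h and 48 h, and Gast was at 0.96 with an adjusted p of 0.800. With the numbers crossed, added after seeing the data, 0 genes passed as well.

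Of 455 values of the 7 genes under alternatives, 15 were marked as a change of sign, all in the tested comparisons. At 24 h and 36 h a change of sign was marked only for differences of at least 2-fold. Quantile normalisation again gave Hdc 0.0105 at 48 h and 0.0086 at 72 h against control, and -0.0018 at 72 h against 48 h. With medians over all probe sets subtracted, Chga was -0.076 at 48 h. Leaving out single arrays gave ranges that crossed 0: at 48 h from -0.32 to 0.14 for Hdc and from -0.40 to 0.48 for Chga, and at 72 h against 48 h from -0.18 to 0.27 for Hdc and from -0.0394 to 0.84 for Chga. The mean over toxin times of Chga ran from -0.0119 to 0.27. Slopes ran from -0.0797 to 0.52 for Sst, from -0.0825 to 0.53 for Ghrl, from -0.0092 to 0.0802 for Hdc and from -0.12 to 0.27 for Chgb. The control was not left out, as each comparison but the slope and 72 h against 48 h needs it.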
